A study of Mus musculus with 56 samples.

Results

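The 10 genes S100a4, S100a6, S100a10, S100a11, Lgals1, Crip1, Anxa1, Anxa2, Vim and Ahnak were followed in regulatory T cells (Tregs, Foxp3-dependent CD4 T cells that dampen immunity) of mice over tissue, diet, time and culture. They were taken by symbol, as calcium-binding, membrane-binding and cytoskeletal genes of effector T cells, and all 10 were found among the 55011 gene symbols of the count table. All 10 passed the filter on low counts in every model fitted. The 10 genes were called higher (adjusted p under 0.05 in edgeR) in VAT than in spleen of week 0 and NCD mice. That comparison called 59.1% of all genes tested, in either direction. In VAT at week 16, 9 of them were called lower on HFD than on NCD, where 9.24% of genes were called. In cultured VAT Tregs 9 were called lower with IFNα, where 21.7% of genes were called. Adjusted for the level of listed stress genes, 0 of 10 members and 4 of 15601 genes were called between tissues. That level separated the tissues without overlap, so its part and that of the tissue cannot be told apart. Between the VAT diets at week 16 the adjusted fit called 0 of 10 members and 113 of 14164 genes. The members' log2 fold changes kept their direction in both fits.

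The series concerns Treg transcription in obesity. Mice of the C57BL/6 strain and the genotype vTreg53 Tg+, which carry a transgenic T cell receptor, were fed the diets abbreviated NCD or HFD in the labels starting at an age of 12 weeks. Diets lasted 2, 4, 8 or 16 weeks, week 0 mice were sampled at the start, and clonotype+ Tregs from spleen and visceral adipose tissue (VAT) were sorted a second time to 1000 cells per library. These cells share the transgenic receptor, so they stand for its specificity and not for the whole Treg pool, and the labels speak of recipient mice without describing a transfer. There were 26 libraries of spleen and 25 of VAT, in 9 groups for either tissue with 3 libraries a group, except that spleen NCD week 4, VAT HFD week 4 and VAT NCD week 16 had 2. The cultures came from another line of the same strain, carrying PPARgamma-tdT (KI/KI) together with Foxp3-GFP (KI/y) reporters, whose donors were 8 to 10 weeks old and had been given IL-33 in vivo, which enlarges the VAT Treg pool. Their PPARγ(tdT)+ VAT Tregs were kept for 3 days with IL-2 at 2000 U/ml plus IL-33 at 10 ng/ml, adding IFNα at 50 ng/ml for 2 libraries and none for 3, and sorted again on Foxp3/GFP.

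Levels are given in CPM, counts scaled to a common library total, on a scale shared by all 56 libraries, with total counts of 3248686 to 5826965 in spleen, 3319873 to 6091439 in VAT and 5408696 to 8764390 in culture. The detection floor, 3 counts, equalled 0.411 to 0.985 CPM. Of 6 Treg identity genes all were detected in each tissue and in culture, and Foxp3 lay between 639.6 and 1249 CPM ex vivo. The 26 spleen libraries carry a VAT tissue label, and the titles were used: Pparg, the factor that marks VAT Tregs, was at 0 to 7.11 CPM in them and at 18.2 to 129 CPM in the VAT libraries. In the cultures, sorted as PPARγ+, Pparg was at 4.58 to 9.05 CPM. The granulocyte genes S100a8 and S100a9 were at 0 in all VAT and spleen libraries, and other granulocyte markers reached up to 2.30 CPM (Retnlg in VAT). Stromal markers summed to at most 7.38 CPM over 8 genes in any VAT library, and macrophage markers to at most 9.18 CPM over 10 genes. Some markers of other cells stood higher in VAT. The B cell gene Ighm reached 6132 CPM, the endothelial gene Pecam1 142 CPM and the mesothelial gene Lrrn4 72.6 CPM. Of the NK cell and CD8 T cell list Cd8b1 reached 37.4 CPM and Klrb1c 20.6 CPM, and of the dendritic cell list Zbtb46 reached 25.7 CPM. The part of other cells in the members' levels was not tested. The labels do not say that the libraries of a group came from separate mice, so p-values measure the spread between libraries, part of which may be technical.

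S100 proteins are small proteins, most of which bind calcium and then attach to target proteins such as myosin and annexins, and annexins bind phospholipid membranes when calcium is present. S100a10 and Anxa2 form a complex under the plasma membrane, and Ahnak, a giant scaffold protein, binds that complex. T cells of effector, memory and tissue-resident type, VAT Tregs among them, are known for higher levels of S100a4, S100a6, Lgals1, Crip1, Vim and annexins than resting T cells of lymphoid organs.

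The members lie on 6 chromosomes in mm10 (GENCODE M21 gene models). S100a4 (chr3:90603771-90606045 on the forward strand), S100a6 (chr3:90612882-90624181 on the forward strand), S100a11 (chr3:93520488-93526287 on the forward strand) and S100a10 (chr3:93555080-93564643 on the forward strand) stand in the S100 gene cluster of chromosome 3. Anxa1 (chr19:20373428-20390944 on the reverse strand) and Ahnak (chr19:8989284-9076914 on the forward strand) share chromosome 19, and Anxa2 lies at chr9:69453620-69491795 on the forward strand. Crip1 lies at chr12:113146316-113153879 on the forward strand, Lgals1 at chr15:78926725-78930465 on the forward strand and Vim at chr2:13573927-13582826 on the forward strand.

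To set side by side members that shared or differed in response, the promoters of 4 of them are shown. Anxa1 had the widest differences between tissues and between diets, S100a4 fell with HFD and with IFNα, Anxa2 fell with IFNα and was not called with HFD at week 16, and Vim fell with HFD at week 16 and was not called with IFNα. Each line gives the 250 bases before the RefSeq start (GRCm38.p6), read 5′ to 3′ on the gene's own strand, from chr19:20390672-20390921 (reverse strand), chr3:90603520-90603769, chr9:69453433-69453682 and chr2:13574061-13574310 (forward strand).
Anxa1: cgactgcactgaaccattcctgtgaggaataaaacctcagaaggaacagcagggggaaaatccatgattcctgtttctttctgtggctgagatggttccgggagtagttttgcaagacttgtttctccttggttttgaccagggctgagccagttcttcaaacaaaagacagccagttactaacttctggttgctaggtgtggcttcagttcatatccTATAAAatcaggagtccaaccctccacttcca
S100a4: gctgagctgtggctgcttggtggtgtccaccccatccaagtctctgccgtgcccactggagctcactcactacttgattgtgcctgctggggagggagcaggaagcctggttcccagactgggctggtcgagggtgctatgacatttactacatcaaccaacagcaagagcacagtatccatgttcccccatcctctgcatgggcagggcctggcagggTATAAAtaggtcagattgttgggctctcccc
Anxa2: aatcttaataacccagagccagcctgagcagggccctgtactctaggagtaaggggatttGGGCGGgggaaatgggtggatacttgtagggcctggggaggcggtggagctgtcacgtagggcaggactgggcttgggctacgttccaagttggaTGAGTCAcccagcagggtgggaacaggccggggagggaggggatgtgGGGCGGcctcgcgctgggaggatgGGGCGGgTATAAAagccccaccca
Vim: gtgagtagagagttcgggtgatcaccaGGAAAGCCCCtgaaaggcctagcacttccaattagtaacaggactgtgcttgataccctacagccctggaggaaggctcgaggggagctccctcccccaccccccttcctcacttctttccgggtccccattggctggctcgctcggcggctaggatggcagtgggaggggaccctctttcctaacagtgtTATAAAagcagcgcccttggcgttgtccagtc
Capitals mark matches, on either strand, to the motifs searched: AP-1 (TGANTCA), SP/KLF (GGGCGG), NF-kB (GGGNNTTTCC), the CArG box and the TATA box (TATAAA). No matches overlapped in these 4 sequences. Of 32851 promoters of the same length, 6.75% held the AP-1 letters, 32.7% the SP/KLF letters, 1.41% the NF-kB letters, 1.47% a CArG box and 12.4% the TATA letters.

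The TATA letters began 32 bases before the start in Anxa1, 31 in S100a4, 32 in Vim and 17 in Anxa2. Vim also held the NF-kB letters 223 bases before its start, and Anxa2 held the AP-1 letters at 95 bases and the SP/KLF letters at 24, 48 and 190 bases. Among the 8 members with a RefSeq promoter, 4 held TATA, 2 AP-1 (Anxa2 and S100a11), 4 SP/KLF, 1 NF-kB and 0 a CArG box. S100a10 and Lgals1 had no entry. The motifs were chosen after the results were known, and a match describes letters only.

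Tregs of VAT carried more RNA of all 10 genes than Tregs of spleen in week 0 and NCD mice, and for every member the 14 VAT libraries lay above the 14 spleen libraries without overlap. The 10 members were called higher (adjusted p under 0.05 in edgeR's quasi-likelihood test), in a comparison that called 59.1% of 15601 genes. The members' median log2 fold change was 2.77, beside -0.04 for all genes tested, and 11.1% of all genes did not overlap between the tissues. In bulk RNA, more cells that express a gene and more RNA per cell cannot be told apart. The largest difference was that of Anxa1 and the smallest that of Anxa2.

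Among the S100 genes, S100a4, whose protein binds non-muscle myosin and is linked to cell motility, had lowest, median and highest levels of 24.3, 56.2 and 99.8 CPM in spleen and 356, 704 and 1119.8 CPM in VAT. Its log2 fold change was 3.69 ± 0.19 (SE, adjusted p = 2.99e-18), and its lowest VAT library stood far above its highest spleen library. S100a6 (calcyclin) had lowest, median and highest levels of 32.6, 73.2 and 132 CPM in spleen and 338, 627 and 918 CPM in VAT, a log2 fold change of 3.13 ± 0.18. S100a11, a partner of annexin A1, was higher by a log2 fold change of 2.18 ± 0.13 from low levels of 9.77 to 29.3 CPM in spleen to 47.0 to 103 CPM in VAT. S100a10, the light chain of the annexin A2 complex, differed less: its lowest, median and highest levels were 256, 349.6 and 467 CPM in spleen and 584, 969 and 1408 CPM in VAT, a log2 fold change of 1.46 ± 0.11.

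The annexins spanned the whole range of the members. Anxa1, a membrane protein known for limiting inflammation, had lowest, median and highest levels of 2.12, 14.6 and 30.0 CPM in spleen and 364, 892 and 1798 CPM in VAT. That is a log2 fold change of 5.96 ± 0.23 (adjusted p = 8.72e-22). Among the 15601 genes tested across both tissues, its mean CPM stood above that of 49.1% in spleen and 99.3% in VAT. Anxa2, the partner of S100a10, had lowest, median and highest levels of 64.4, 114 and 146 CPM in spleen and 190.3, 255 and 347 CPM in VAT, a log2 fold change of 1.25 ± 0.14 (adjusted p = 1.17e-09). Its lowest VAT library still stood above its highest spleen library.

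The remaining members are a lectin, a LIM protein, a filament and a scaffold. Lgals1, which encodes the sugar-binding protein galectin-1, ran from 73.8 to 164 CPM in spleen and from 300.4 to 814 CPM in VAT (log2 fold change 2.17 ± 0.16). Crip1, a small zinc-binding LIM-domain protein, had lowest, median and highest levels of 114, 136 and 190.02 CPM in spleen and 457, 875 and 1581 CPM in VAT (log2 fold change 2.75 ± 0.10, adjusted p = 1.11e-23). Vim, the intermediate filament vimentin, ran from 802 to 1755 CPM in spleen and from 4887 to 13729 CPM in VAT (log2 fold change 2.80 ± 0.13). Vim had the most counts of the members in both tissues. Ahnak ran from 293 to 598 CPM in spleen and from 2302 to 4293 CPM in VAT (log2 fold change 2.94 ± 0.14).

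**Figure D1:**
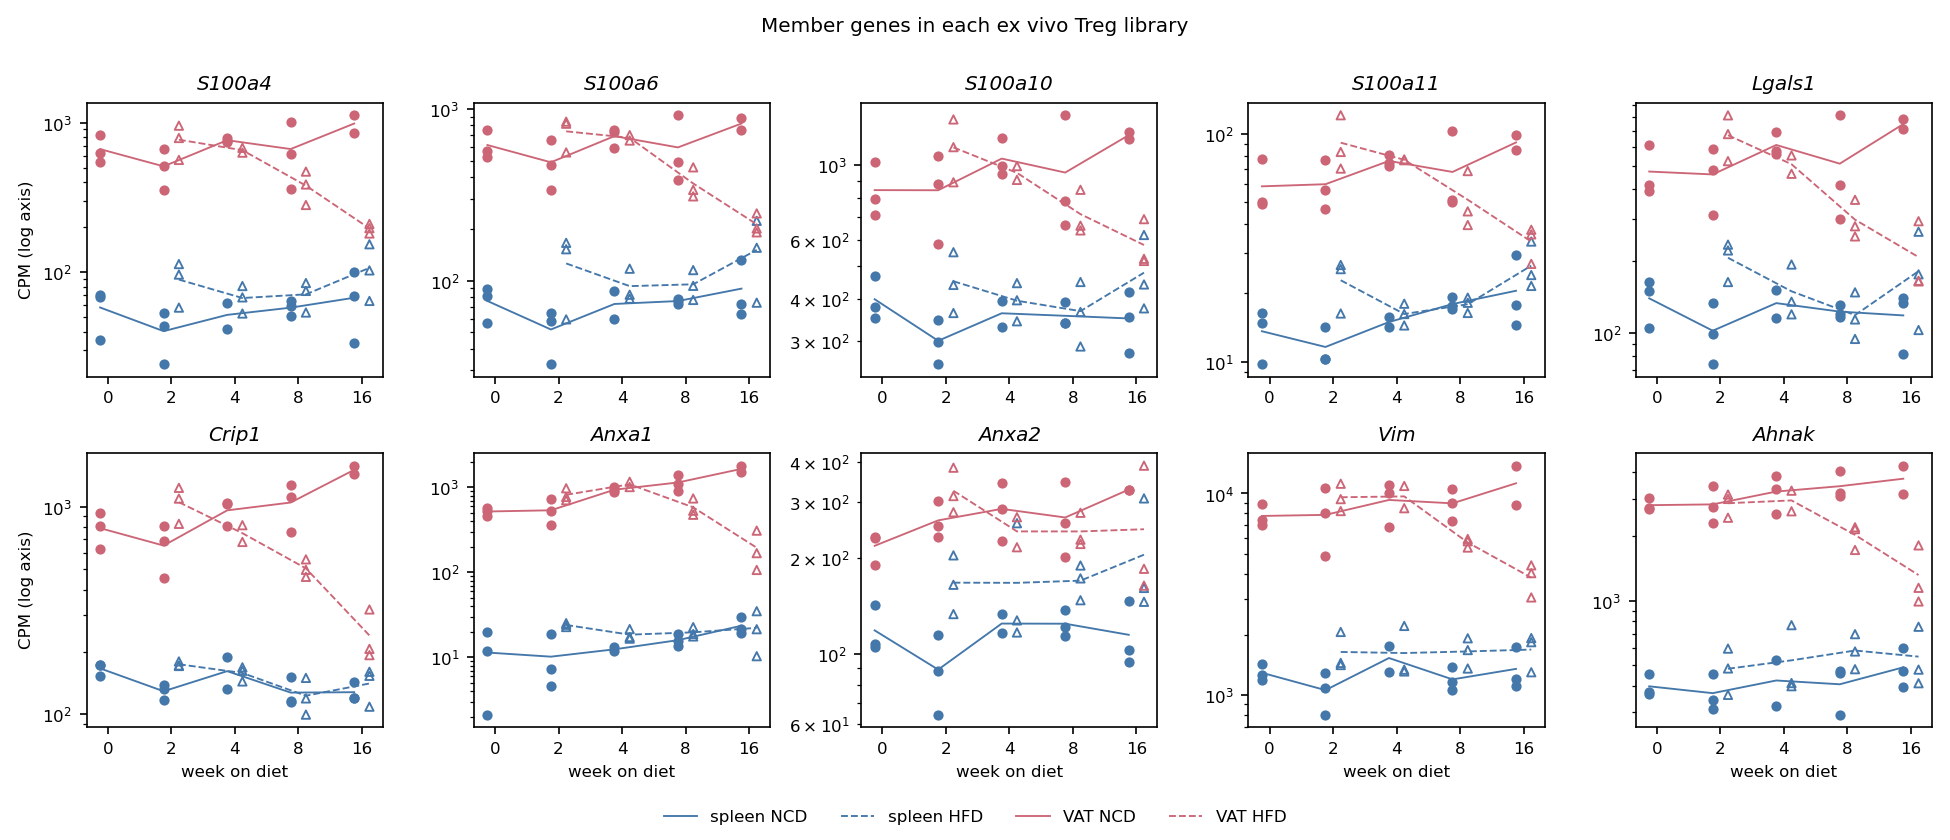
Level of each member (CPM, log axis, axis range set per gene) in every ex vivo library against weeks on diet, with filled circles for week 0 and NCD, open triangles for HFD, lines through group means, VAT in red and spleen in blue. VAT libraries stand above spleen libraries throughout the NCD weeks, and the VAT HFD line drops toward the spleen at week 16 for every member except Anxa2.

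Compared between genes per kilobase of exon, the order of levels differed between the tissues. In spleen S100a10 (292 ± 46.2 CPM per kilobase, mean ± SD over 14 libraries) and Vim (268 ± 53.3) led and differed by less than their spread. They were followed by Lgals1 (135 ± 28.8), S100a4 (94.8 ± 33.2), Crip1 (62.0 ± 10.7) and S100a6 (53.7 ± 16.3), with Crip1 and S100a6 within their spread. S100a11 (30.9 ± 9.52) and Anxa2 (30.4 ± 6.02) were level, above Ahnak (20.9 ± 4.41) and Anxa1 (5.11 ± 2.51).

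In VAT the order per kilobase was Vim (1865 ± 469.6 CPM per kilobase), S100a4 (1196 ± 378), S100a10 (796 ± 202), Lgals1 (606 ± 185), S100a6 (461 ± 131), Crip1 (419 ± 139), Anxa1 (312 ± 147), Ahnak (159 ± 29.1), S100a11 (136 ± 36.9) and Anxa2 (72.0 ± 14.3). Neighbours from S100a10 to Anxa1, and Ahnak and S100a11, differed by less than their spread. S100a4 thus stood at rank 4 per kilobase in spleen and rank 2 in VAT, and Anxa1 at rank 10 and rank 7. The values divide by whole exon lengths. Yet 48.5% of the 38-base stretches of S100a4 and 45.8% of those of S100a11 also occur in other genes. The places of these members in every per-kilobase order given here are therefore uncertain.

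Some reads could not be given to a member with certainty. Of the stretches of 38 bases, the read length, in the S100a4 transcripts 48.5% also occur in Gm42674, a gene model that overlaps S100a4 by 302 exonic bases on the same strand, and Gm42674 had 1 count in 1 of 56 libraries. Of those of S100a11, 45.8% occur in pseudogenes, whose levels stayed at or under 2.68 CPM (Gm12854), and reads that match both cannot be told apart. Anxa2 shares 1.67% with the antisense gene Gm16144, at most 4.73 CPM, and whether counting used the strand is not stated in the sources at hand. The other 7 members shared at most 0.0421%.

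Immediate early and heat shock genes, which respond within minutes to handling and dissociation of tissue as well as to signals in the animal, differed between the tissues too. Of 20 listed genes 19 were called higher in VAT and 1 lower, and their summed level was 1688 to 2503 CPM in spleen and 19780 to 37240 CPM in VAT. With their mean log2 level as a covariate, 0 of 10 members and 4 of 15601 genes were called between the tissues in edgeR. The members' log2 fold changes were then 1.76 to 4.13, all positive, with adjusted p from 0.186 to 0.663. The list's level separated the tissues without overlap, so its part and that of the tissue cannot be told apart here.

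The related genes followed the members only in part, in a comparison that called 59.1% of 15601 genes, 4533 higher and 4688 lower. Of the 10 other annexins 7 were tested and 7 were higher in VAT, of 12 other S100 genes 4 were tested with 3 higher and 1 lower, and of 5 other CRIP and CSRP LIM genes 3 were tested with 3 higher. The galectin list, 8 genes including Lgals3bp for the galectin-3-binding protein, gave 5 tested genes, with 2 higher and 1 lower, which was Lgals3bp. All 26 actin and filament genes were tested, with 20 higher and 3 lower. Among those changed at least 2-fold, Tagln2 (transgelin-2, log2 fold change 2.29), Actg1 (gamma-actin, 1.51) and Plec (plectin, a linker of filaments, 1.49) were higher, and Tmsb10 (thymosin beta-10, which binds actin monomers) was lower at -1.38. Of 11 receptors and partners 4 were tested, with 1 higher and 2 lower. Ager, which encodes the S100 receptor RAGE, was lower at -1.88, and Plat, whose protease product binds the S100a10 and annexin A2 complex, was lower at -2.68 from a mean of 5.27 CPM in spleen.

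After 16 weeks of diet, 9 of the 10 members were lower in VAT Tregs of HFD mice than of NCD mice, and Anxa2 was not called. The comparison, of 3 HFD with 2 NCD libraries, called 9.24% of 14164 genes (611 higher and 698 lower). The members' median log2 fold change was -1.69, beside 0.02 for all genes, and 9 members did not overlap between the diets, which held for 36.8% of all genes. The summed level of the 10 members was 18775 to 25872 CPM on NCD and 5676 to 7791 CPM on HFD.

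S100a4 was at 852 and 1119.8 CPM in the NCD libraries and 197, 210.2 and 181 CPM in the HFD libraries of week 16. Every HFD library lay far below the lower NCD library, with a log2 fold change of -2.32 ± 0.34 (adjusted p = 0.000241). S100a6 was at 758 and 885 CPM in the NCD libraries and 246, 201 and 191 CPM in the HFD libraries (log2 fold change -1.94 ± 0.31, adjusted p = 0.000563), again with all HFD libraries far below. S100a11 was at 84.5 and 98.5 CPM in the NCD libraries and 37.9, 26.9 and 36.2 CPM in the HFD libraries (log2 fold change -1.44 ± 0.29, adjusted p = 0.00181). S100a10, the S100 gene without a working calcium site, moved least: its levels were 1199 and 1259 CPM in the NCD libraries and 691, 527 and 519 CPM in the HFD libraries (log2 fold change -1.08 ± 0.28, adjusted p = 0.0182). The groups of S100a10 did not overlap, but its call was lost without NCD replicate 2, NCD replicate 3, HFD replicate 2 or HFD replicate 3 (adjusted p = 0.0867, 0.108, 0.0596 and 0.0743).

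The annexins parted. Anxa1 was at 1501 and 1798 CPM in the NCD libraries and 107, 309.7 and 168 CPM in the HFD libraries, the largest fall of the members (log2 fold change -3.07 ± 0.35, adjusted p = 2.43e-05), and its HFD libraries were the lowest of all VAT libraries. Anxa2 was at 328 and 328 CPM in the NCD libraries and 389.9, 185 and 164 CPM in the HFD libraries (log2 fold change -0.41 ± 0.28, adjusted p = 0.449). HFD replicate 1 stood above both NCD libraries for Anxa2 and the other HFD libraries below them, and without that library Anxa2 was called at -0.91 (adjusted p = 0.00759).

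Crip1 was at 1439 and 1581 CPM in the NCD libraries and 193, 321 and 207 CPM in the HFD libraries (log2 fold change -2.64 ± 0.26, adjusted p = 4.21e-06), the smallest p of the members. Lgals1 was at 714 and 782 CPM in the NCD libraries and 293, 165 and 164 CPM in the HFD libraries (log2 fold change -1.84 ± 0.36, adjusted p = 0.00292). Both genes had their highest HFD library well below the lower NCD library. Vim was at 8733 and 13729 CPM in the NCD libraries and 4402, 4029 and 3053 CPM in the HFD libraries (log2 fold change -1.54 ± 0.28, adjusted p = 0.00147). Ahnak was at 3167 and 4293 CPM in the NCD libraries and 1149.6, 1817 and 992 CPM in the HFD libraries (log2 fold change -1.49 ± 0.23, adjusted p = 0.000323). The long genes Vim and Ahnak and the short S100 genes thus moved in the same direction.

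The gap between the tissues narrowed in these libraries. The ratio of the VAT mean to the spleen mean had a median over the members of 7.98 on NCD at week 16 and 1.56 on HFD, where it ran from 1.15 for Lgals1 to 8.76 for Anxa1. Only 5 of 10 members separated VAT from spleen without overlap on HFD at week 16, against 10 of 10 at week 0 and at each NCD week. Of all 15601 genes tested in both tissues, 12.6% were higher in VAT without overlap on HFD at week 16, against 24.2% on NCD at week 16 with 1 VAT library fewer and 24.8% at week 0, and the median ratio over all genes was 0.985 on HFD and 0.949 on NCD at week 16. At the earlier HFD weeks the median ratio was 5.86 at week 2, 5.17 at week 4 and 3.47 at week 8.

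Other genes moved with the members in the week 16 VAT libraries. The 20 immediate early and heat shock genes summed to 36740 to 37240 CPM on NCD and 12000 to 23720 CPM on HFD, with 12 called lower and 0 higher. With their mean as a covariate 0 of 10 members were called, and 113 genes in place of 1309. The members' log2 fold changes were then all negative, from -2.81 to -0.99 with a median of -2.10, and adjusted p ran from 0.0516 (Crip1) to 0.317 (Ahnak). The VAT Treg genes Pparg (-1.86), Il1rl1 (-1.37), Klrg1 (-1.12) and Areg (-1.25) were called lower by log2 fold change, and Foxp3 was not called (-0.12, adjusted p = 0.548). The part of the stress genes in the members' fall was not tested beyond this fit.

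Markers of other cells differed as well between the week 16 VAT groups. The 6 B cell markers summed to 355 to 365 CPM on NCD and 1669 to 2493 CPM on HFD, nearly all of it Ighm (350.0 to 362 and 1656 to 2468 CPM), with Pax5 at 0 in all HFD libraries. The 6 endothelial markers summed to 35.5 to 38.9 and 78.7 to 142 CPM. Of this Pecam1, which was at up to 365 CPM in spleen Tregs, gave 32.8 to 36.7 and 77.5 to 142 CPM, and the other 5 markers together 2.27 to 2.66 CPM on NCD and 0 to 1.57 CPM on HFD, with Cdh5, Kdr, Tie1 and Cldn5 at 0 on HFD. The 7 mesothelial markers summed to 45.7 to 72.8 and 19.4 to 32.6 CPM, mostly Lrrn4 (43.3 to 72.6 and 12.9 to 24.4 CPM), with Upk3b, Krt19 and Krt8 at 0 in both groups. The 8 stromal markers summed to 4.44 to 5.48 and 1.26 to 3.55 CPM. The 10 macrophage markers summed to at most 2.83 CPM on NCD and 8.55 CPM on HFD, and the 7 adipocyte markers to 4.22 to 5.48 and 0 to 0.698 CPM. Their part in the members' difference was not tested.

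**Figure D2:**
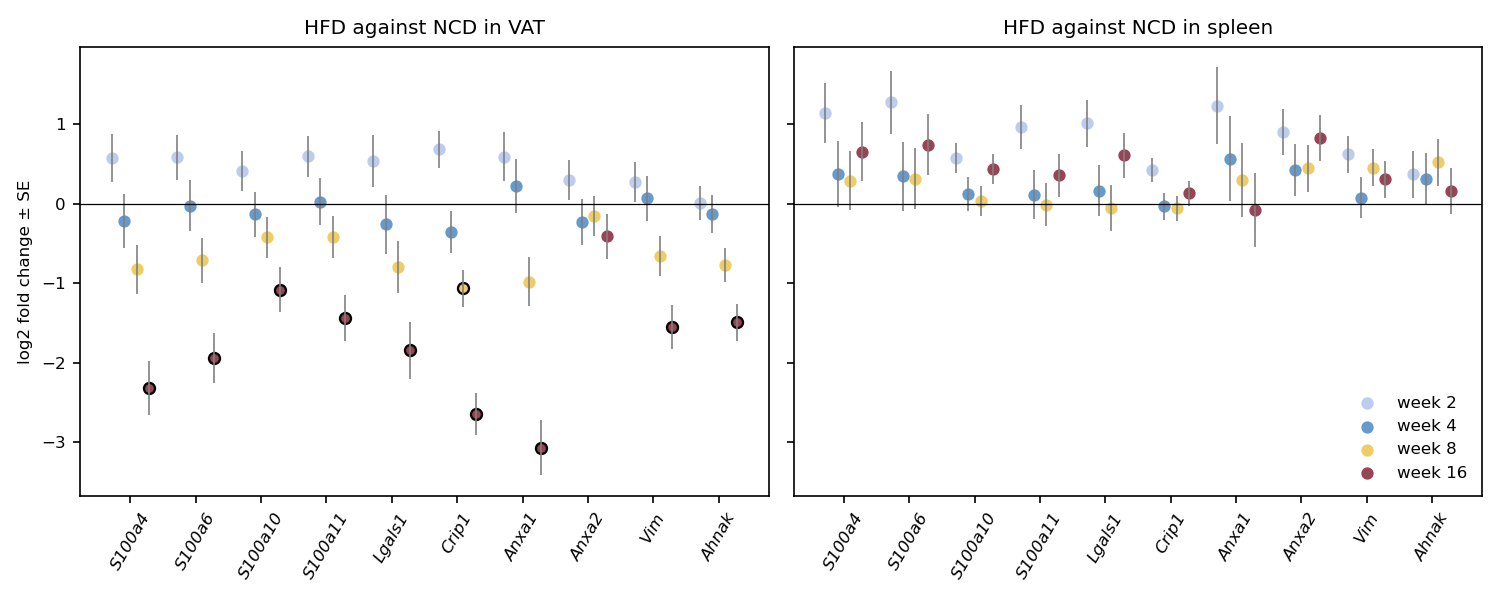
Log2 fold change of HFD against NCD (± SE) for each member at weeks 2, 4, 8 and 16 in VAT and in spleen, with a black outline where the adjusted p was under 0.05. In VAT the values run from positive at week 2 to between -3.07 and -0.41 at week 16, and in spleen no week has an outlined point.

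In VAT no member was called lower at weeks 2 and 4. At week 2 edgeR called 0 members, in a comparison that called 0.0565% of genes, with 1429 genes at an unadjusted p under 0.05 and 0 members called by DESeq2. All 10 log2 fold changes were positive then, from 0.01 (Ahnak) to 0.68 (Crip1), with a median of 0.56 beside -0.01 for all genes. Only Crip1 did not overlap, at 809, 457 and 688 CPM on NCD and 1236, 829 and 1097 CPM on HFD, where 14.9% of all genes did not. At week 4 edgeR again called 0 members and 0.0212% of genes, with 1385 genes at an unadjusted p under 0.05 and 0 members called by DESeq2. The median log2 fold change of the members was then -0.13 beside -0.02 for all genes, from -0.35 (Crip1) to 0.22 (Anxa1).

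At week 8 all 10 log2 fold changes were negative and 1 member, Crip1, was called, with 1.33% of genes called. The median of the members was -0.74 beside -0.01 for all genes. Crip1 was at 756, 1277 and 1117 CPM on NCD and 559, 460.3 and 498 CPM on HFD, without overlap (log2 fold change -1.06 ± 0.24, adjusted p = 0.0326). Its call was lost without NCD replicate 2, NCD replicate 3 or any of the 3 HFD libraries. Ahnak was at 3098, 3189 and 4035 CPM on NCD and 1729.95, 2209.6 and 2165 CPM on HFD (log2 fold change -0.77, adjusted p = 0.083), and Anxa1 at 911, 1405 and 1107 and 476, 740.1 and 531 CPM (log2 fold change -0.98, adjusted p = 0.144). Crip1, Ahnak, Anxa1 and Vim were the 4 members whose groups did not overlap, against 18.2% of all genes. The stress genes summed to 24390 to 30440 CPM on NCD and 22330 to 27060 CPM on HFD at week 8, with 1 of 20 called lower.

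As a mean over the 4 weeks, 4 members were lower on HFD in VAT and 4.20% of genes were called. The log2 fold changes were -0.84 ± 0.12 for Crip1 (adjusted p = 0.000656), -0.81 ± 0.16 for Anxa1 (0.00838), -0.69 ± 0.16 for S100a4 (0.0211) and -0.59 ± 0.11 for Ahnak (0.00429), and the median of the members was -0.55 beside -0.01. This mean rested on week 16. Without the week 16 libraries 0 members were called in edgeR, the log2 fold changes ran from -0.29 to 0.07 with a median of -0.07, and 160 genes were called in place of 595. With the stress genes as a covariate 1 member, Crip1, was called, and 295 genes in place of 595. Without NCD week 2 replicate 2 the count was 7, and the call of S100a4 was lost without NCD week 16 replicate 3 or HFD week 4 replicate 2. Week 16 differed from the mean of the earlier weeks for 8 members, all but Anxa2 and S100a10, where 7.12% of genes were called and the median was -1.59 beside 0.05.

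That difference between week 16 and the earlier weeks was -3.02 ± 0.39 for Anxa1 (adjusted p = 0.000156) and -2.40 ± 0.29 for Crip1 (adjusted p = 7.74e-05). S100a4 (-2.17 ± 0.38), S100a6 (-1.89 ± 0.36), Lgals1 (-1.67 ± 0.41), S100a11 (-1.51 ± 0.33), Vim (-1.44 ± 0.32) and Ahnak (-1.20 ± 0.26) followed, and S100a10 had -1.03 ± 0.32 (adjusted p = 0.0588). Without NCD week 16 replicate 3 the count was 4, the NCD arm of week 16 then being a single library assumed to vary like the other groups. With the stress genes as a covariate the count was 0, and 32 genes were called in place of 1009. The members' log2 differences were then -2.66 to -0.68, with the smallest adjusted p at 0.0931.

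**Figure D3:**
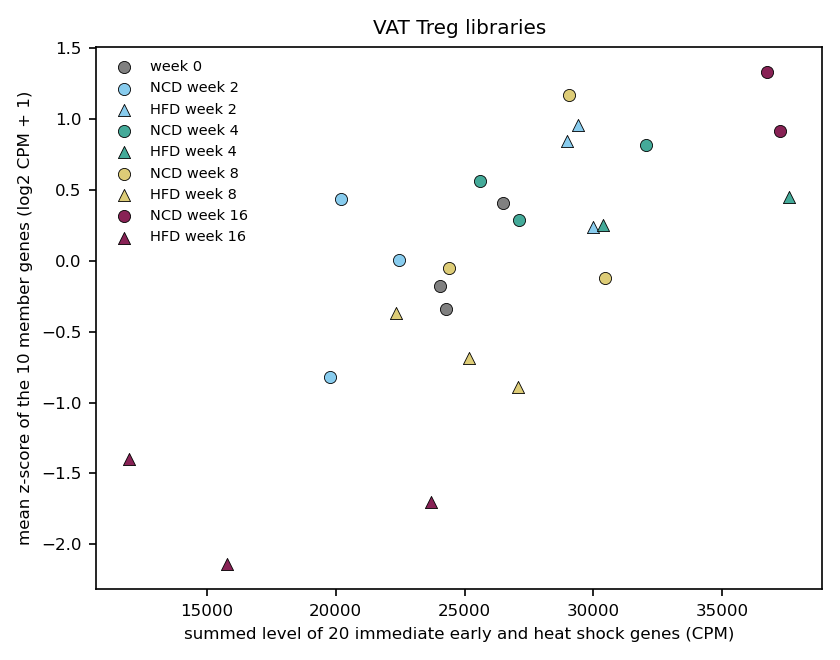
Mean z-score of the 10 members (from log2 CPM + 1, each gene scaled over the 25 VAT libraries) against the summed level of 20 immediate early and heat shock genes (CPM) in each VAT library, with circles for week 0 and NCD and triangles for HFD. The HFD week 16 libraries lie lowest on the members' score and the NCD week 16 libraries lie high on both axes.

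Over the 25 VAT libraries the members' mean z-score went with the mean log2 level of the stress genes (Pearson r 0.77, Spearman 0.735), as a description of libraries that share depth and groups. Without the week 16 libraries r was 0.529 over 20 libraries (Spearman 0.547). For deviations from the group means it was -0.192 (Spearman -0.247).

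In spleen Tregs no member was called lower with HFD at any week. At week 2, 8 of 10 members were higher on HFD without overlap, against 13.6% of all genes, but 0 passed the test, with 0.0272% of genes called, 1402 genes at an unadjusted p under 0.05 and 0 members called by DESeq2. The median log2 fold change was 0.94 beside 0.00 for all genes. S100a6 had the largest, 1.28 ± 0.39 (adjusted p = 0.353), at 64.8, 58.3 and 32.6 CPM on NCD and 152, 166 and 59.4 CPM on HFD, where HFD replicate 3 fell among the NCD libraries. Anxa1 was at 18.7, 4.60 and 7.36 CPM on NCD and 25.3, 24.2 and 22.8 CPM on HFD (log2 fold change 1.24 ± 0.48, adjusted p = 0.41), without overlap. Lgals1 was at 133, 98.7 and 73.8 CPM on NCD and 221, 234 and 163 CPM on HFD (log2 fold change 1.01 ± 0.29, adjusted p = 0.334).

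At weeks 4, 8 and 16 edgeR called 0 members in spleen, with 1.24%, 0.00% and 0.00% of genes called, and DESeq2 called 0 members as well. At an unadjusted p under 0.05 there were 1414, 716 and 975 genes, and DESeq2 called 307, 1 and 21 genes. The medians of the members were 0.24, 0.29 and 0.40 on the log2 scale, beside values within 0.01 of 0 for all genes. As a mean over the weeks all 10 log2 fold changes were positive, with a median of 0.40 beside 0.00, and 1 member was called where 0.933% of genes were. That member was Anxa2 (0.65 ± 0.15, adjusted p = 0.0427), at 64.4 to 146 CPM over the NCD weeks and 117 to 308 CPM on HFD, where the ranges overlapped. Its adjusted p lay between 0.0519 and 0.101 in 14 of the 23 fits that left out a library, and it was 0.0673 without week 16, 0.0531 with a looser filter and 0.0630 with a replicate block.

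The effect of HFD differed between the tissues for 9 members as a mean over the weeks, where 2.44% of genes were called, and S100a10 missed the threshold (adjusted p = 0.0506). The log2 effect in VAT minus that in spleen was -1.34 ± 0.30 for Anxa1, -1.32 ± 0.27 for S100a4, -1.21 ± 0.26 for S100a6, -1.03 ± 0.24 for Lgals1 and -0.97 ± 0.15 for Crip1. Ahnak (-0.95 ± 0.20), Vim (-0.84 ± 0.19), Anxa2 (-0.78 ± 0.22) and S100a11 (-0.68 ± 0.20) came next, and the median of the members was -0.96 beside -0.03. The calls of Anxa2 (adjusted p = 0.0434) and S100a11 (0.0492) were lost in 31 and 37 of 51 alternatives. Without week 16, 0 members and 68 genes were called, the latter in place of 380. All 10 values were then negative with a median of -0.58, and the smallest adjusted p was 0.133. With the stress genes as a covariate 4 members, S100a4, Lgals1, Crip1 and Vim, were called, and 142 genes in place of 380.

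At week 16 alone the difference between the tissues was called for 9 members, all but Anxa2 (-1.26 ± 0.43, adjusted p = 0.0935), where 4.46% of genes were called. It was largest for Anxa1 (-3.04 ± 0.59), S100a4 (-3.01 ± 0.54), Crip1 (-2.81 ± 0.30) and S100a6 (-2.72 ± 0.53), and the median was -2.18 beside 0.02. The call of Ahnak was lost without VAT NCD week 16 replicate 3. With the stress genes as a covariate 4 members, S100a11, Lgals1, Crip1 and Vim, were called, and 130 genes in place of 696. In spleen, where the members were not called at week 16, the stress genes summed to 1979 to 2186 CPM on NCD and 2231 to 2376 CPM on HFD. These comparisons share libraries with those within each tissue and are not independent of them.

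Over time on NCD in VAT 1 member was called. Between week 0 and week 16 on NCD all 10 log2 fold changes were positive, with a median of 0.57 beside -0.01, and 9 members did not overlap, against 35.9% of all genes. Only Anxa1 was called, where 0.713% of genes were: it was at 577, 459 and 524 CPM at week 0 and 1501 and 1798 CPM at week 16 (log2 fold change 1.66 ± 0.34, adjusted p = 0.0257). Leaving out any of these 5 libraries ended the call, with adjusted p from 0.0744 to 0.164. Crip1 was at 939.99, 805 and 626 CPM and 1439 and 1581 CPM (log2 fold change 0.93 ± 0.26, adjusted p = 0.102). The stress genes summed to 24060 to 26480 CPM at week 0 and 36740 to 37240 CPM at NCD week 16, with 3 of 20 called higher, and their part was not tested. The same NCD week 16 libraries serve as the controls of the diet comparison at week 16. In spleen edgeR called 0 members between week 0 and NCD week 16, where 0.654% of genes were called, with 1452 genes at an unadjusted p under 0.05 and 0 members called by DESeq2.

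Among the ex vivo VAT groups every member had its highest mean at NCD week 16, and every member except Anxa2 its lowest at HFD week 16. The mean at HFD week 2 was close to the highest for S100a11 (91.3 against 91.5 CPM) and Anxa2 (325 against 328 CPM). The ratio of the highest to the lowest VAT mean was 8.46 for Anxa1, 6.29 for Crip1, 5.02 for S100a4, 3.86 for S100a6, 3.61 for Lgals1, 2.93 for Vim, 2.83 for Ahnak, 2.72 for S100a11, 2.12 for S100a10 and 1.5 for Anxa2. Apart from Anxa2, the diet difference at week 16 thus set the highest VAT mean against the lowest. As examples at week 0 in VAT, S100a4 was at 822, 631 and 541 CPM and Vim at 8891, 6954 and 7365 CPM. The HFD week 16 libraries were below these values for both genes. Anxa2 overlapped, at 190.3 to 233 CPM at week 0 and 163.7 to 389.9 CPM on HFD at week 16. These groups were not tested against each other, and the share of all genes without overlap was not computed.

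In cultured VAT Tregs IFNα, the type I interferon that activates antiviral genes, was followed by lower levels of 9 members, and Vim was not called. The comparison, of 2 IFNα libraries with 3 control libraries, called 21.7% of 12604 genes, and the members' median log2 fold change was -1.05 beside 0.01 for all genes. The 9 members did not overlap between the groups, which held for 47.6% of all genes. The order was not that of the diet comparison, since Anxa2 changed most.

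Anxa2 was at 792, 922 and 887 CPM without and 165 and 189 CPM with IFNα (log2 fold change -2.25 ± 0.09, adjusted p = 6.02e-14). Its partner S100a10 was at 1566, 1708 and 1636 CPM without and 779.5 and 846 CPM with IFNα (log2 fold change -0.97 ± 0.07, adjusted p = 2.29e-09), and the scaffold Ahnak at 139, 124 and 104 CPM without and 93.1 and 80.5 CPM with IFNα (log2 fold change -0.45 ± 0.13, adjusted p = 0.0133). The fold changes of the 3 genes of this membrane complex were unlike, though the differences between genes were not tested, and the call of Ahnak was lost without IFNα replicate 2 (-0.33, adjusted p = 0.163).

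S100a4 was at 309, 333 and 294 CPM without and 75.6 and 71.6 CPM with IFNα (log2 fold change -2.04 ± 0.10, adjusted p = 1.46e-12). S100a6 was at 1134, 1316 and 1208 CPM without and 364 and 442 CPM with IFNα (log2 fold change -1.55 ± 0.09, adjusted p = 2.12e-11). Both had their groups far apart and little spread within them. S100a11 was at 144, 145 and 129 CPM without and 87.8 and 94.2 CPM with IFNα (log2 fold change -0.57 ± 0.10, adjusted p = 0.000294), a smaller fall.

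Anxa1, scarce in culture, was at 33.8, 26.9 and 31.9 CPM without and 9.48 and 14.7 CPM with IFNα (log2 fold change -1.29 ± 0.21, adjusted p = 0.000164). Crip1 was at 716, 803 and 701 CPM without and 304 and 349 CPM with IFNα (log2 fold change -1.13 ± 0.08) and Lgals1 at 1101, 1229 and 1137 CPM without and 595 and 680.4 CPM with IFNα (log2 fold change -0.81 ± 0.08). Vim, the member with the most counts, was at 6625, 6341 and 5978 CPM without and 6225 and 6652 CPM with IFNα, and the groups overlapped (log2 fold change 0.07 ± 0.07, adjusted p = 0.498). At an SE of 0.07 the change of Vim was small beside those of the other members. The stress genes summed to 4538 to 5172 CPM without and 4543 to 5028 CPM with IFNα, overlapping, with 3 of 17 tested genes higher and 3 lower. The B cell list summed to 4080 to 4989 and 4505 to 4688 CPM, of which Ighm alone gave 4009 to 4912 and 4451 to 4639 CPM. The 10 macrophage markers summed to 9.35 to 16.6 and 4.49 to 5.26 CPM and the 7 mesothelial markers to 16.2 to 20.4 and 4.49 to 10.3 CPM, with 1 gene of each list lower, and their part was not tested. Foxp3 was called lower (-1.11).

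**Figure D4:**
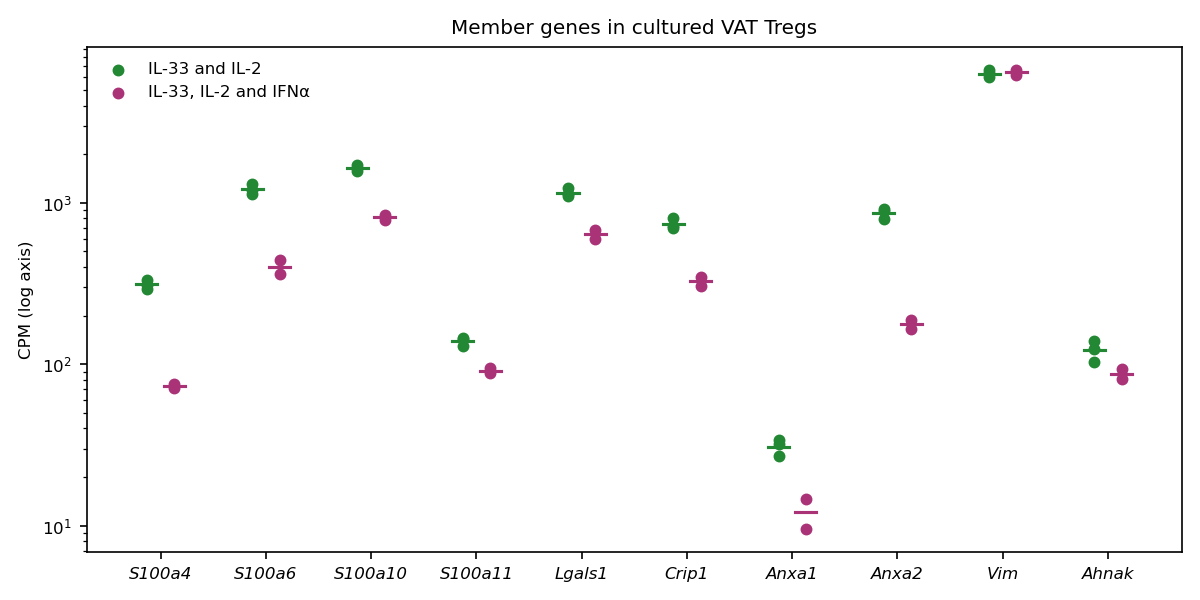
Level of each member (CPM, log axis) in VAT Tregs cultured with IL-33 and IL-2 without IFNα (3 libraries) and with IFNα (2 libraries), with points for libraries and bars for group means. The groups are apart for 9 members and overlap for Vim, where all 5 libraries lie between 5978 and 6652 CPM.

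With 9 of 10 members lower on HFD in VAT at week 16 and 9 of 10 lower with IFNα, at least 8 had to be shared, so the overlap is no measure of likeness. The comparisons share no library but differ in mouse line and setting. The log2 fold changes for HFD at week 16 and for IFNα were -2.32 and -2.04 for S100a4, -1.94 and -1.55 for S100a6, -1.08 and -0.97 for S100a10 and -1.44 and -0.57 for S100a11. They were -1.84 and -0.81 for Lgals1, -2.64 and -1.13 for Crip1, -3.07 and -1.29 for Anxa1 and -1.49 and -0.45 for Ahnak. Anxa2 (-0.41 and -2.25) and Vim (-1.54 and 0.07) were each called in 1 of the comparisons. The difference between the effects was not tested.

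Set beside the VAT Tregs taken from mice, with no test because the mouse line differs, the control cultures held more S100a6 (1134 to 1316 CPM against 191 to 918 CPM over all 25 VAT libraries) and Lgals1 (1101 to 1229 CPM against 164 to 814 CPM). They also held more Anxa2 (792 to 922 CPM against 164 to 389.9 CPM), S100a10 (1566 to 1708 CPM against 519 to 1408 CPM) and S100a11 (129 to 145 CPM against 26.9 to 120.4 CPM). They held less Anxa1 (26.9 to 33.8 CPM against 107 to 1798 CPM) and less Ahnak (104 to 139 CPM against 992 to 4293 CPM). S100a4, Crip1 and Vim lay within the VAT range.

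Per kilobase the control cultures were led by S100a10 (1350 ± 58.6 CPM per kilobase, mean ± SD over 3 libraries), Vim (1331 ± 68.3) and Lgals1 (1280 ± 73.0), which differed by less than their spread. S100a6 (892 ± 67.0) and S100a4 (534 ± 33.9) came next, followed by Crip1 (325 ± 24.4), S100a11 (272 ± 16.9) and Anxa2 (232 ± 18.0). Anxa1 (10.6 ± 1.24) and Ahnak (6.13 ± 0.885) were far lower. Ahnak, whose exons span 19938 bases, was at rank 10 per length in culture and rank 8 in VAT.

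Within groups most pairs of members varied together. For deviations from the group means, 38 of 45 pairs of members had a positive correlation over the 25 VAT libraries, with a median r of 0.53, from -0.36 between Anxa1 and Anxa2 to 0.97 between S100a10 and Lgals1. Ahnak had negative values in VAT with S100a4, S100a6, S100a10, S100a11, Lgals1 and Anxa2, from -0.208 to -0.0138. In spleen 45 of 45 pairs were positive over 26 libraries, with a median r of 0.56. The share of positive pairs among other genes was not computed. These values describe libraries that share depth and scaling. The genes outside the members whose log2 level followed their mean z-score most closely in VAT were Tagln2 (r 0.96), Gpx1 (0.96), Tuba1a (0.95), Lmna (0.94) and Myadm (0.94), among 8737 genes. In spleen they were Ccr2 (0.91), Rora (0.88), Itgae (0.85), Capg (0.84) and Morrbid (0.83), among 8603 genes.

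The related genes moved with the members in VAT at week 16 for some families. This comparison called 9.24% of 14164 genes, 611 higher and 698 lower. Of 26 actin and filament genes 12 were lower and 0 higher on HFD, with Tagln2 at -1.36 and Plec at -1.36 on the log2 scale. Of the other annexins 3 of 7 tested were lower (Anxa5, Anxa6 and Anxa7, named after their values were seen, at -0.71, -0.59 and -0.47), and of the other S100 genes 2 of 3 (S100a1 and S100a13, named likewise, at -1.78 and -1.04). Among 5 tested genes of the galectin list Lgals3, whose product galectin-3 binds the same class of sugars as galectin-1, was lower at -2.71 and the binding-protein gene Lgals3bp, known as interferon-induced, higher at 1.87. Of the LIM genes 1 of 3 was lower, and of the receptors and partners 0 of 3 were called. The medians of these lists were -0.43, -0.59, -1.04, -0.19, -0.29 and 1.97 in the order given, beside 0.02 for all genes.

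Lgals3 also stood out in the tissue comparison of the diet effect, at -1.83 as a mean over the weeks and -3.93 at week 16, and it was higher on HFD in spleen as a mean (1.01). Plec (-1.51) and Flna (-1.02), which encodes the actin crosslinker filamin A, were lower at week 16, and Lmna, the nuclear lamin gene, was lower as a mean (-1.11). Plat was called at 8.14 at week 16, a fitted value that depends on the prior count, from levels of at most 12.4 CPM in any ex vivo library. In VAT, Lmna (-2.95), Lgals3 (-2.55) and Plec (-1.16) were lower and Lgals3bp (1.82) was higher at week 16 against the earlier weeks, and Cotl1, a coactosin-like actin binder, was higher on HFD at week 2 (1.16).

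With IFNα in culture 15 of 26 actin and filament genes were lower and 1 higher, with a median of -0.29, beside 0.01 for all genes. This comparison called 21.7% of 12604 genes, 1342 higher and 1390 lower. Of the other annexins 2 of 7 tested were lower (Anxa5 and Anxa6), and of the other S100 genes 2 of 2 (S100a1 and S100a13), all 4 named after their values were seen. Of the galectin list 6 genes were tested and 3 were higher. These were the galectins Lgals9 (1.19) and Lgals8 (0.81, named after its value was seen) and Lgals3bp (3.15), whose product binds galectin-3 and is itself no galectin, while Lgals3 (-0.09), Lgals4 and Lgals7 were not called. Of 4 LIM genes 1 was higher, the muscle gene Csrp3 (1.96). Of 2 tested receptors and partners 0 were called.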

How the data were processed

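RNA was measured by bulk RNA-seq of sorted Tregs in 56 libraries. Gene counts were deposited by the authors as one table of whole-number counts. STAR 2.7.3a, featureCounts and mm10 are named in the submitters' processing notes, and strandedness of counting is not given in the sources used. Libraries were grouped by their titles. Counts were fitted with edgeR 4.0.16 in R 4.3.3 (quasi-likelihood test, TMM scaling, filterByExpr with a minimum count of 10, robust prior, group means, Benjamini-Hochberg adjustment over all genes tested, threshold 0.05) in 4 fits: both tissues, VAT, spleen and culture, with 17 comparisons. Errors of log2 fold changes are SEs, and floors cover counting error only. The members and gene lists were chosen with earlier results of these data known. Besides the members, the text names genes of the related lists by rule, up to 3 per direction and comparison with the smallest p among those called and changed at least 2-fold, and the 5 genes most like the members per tissue. Replicate numbers gave no general sign of pairing, with a median correlation of same-numbered libraries of 0.006 to 0.022. At HFD week 16, however, spleen and VAT libraries of the same number had r of 0.246, 0.0817 and 0.165. Those of different numbers had r from -0.2165 to 0.0834. Between the diets in spleen at week 16, libraries of the same number had r of 0.192, 0.00554 and 0.0898. There, those of different numbers had r from -0.151 to 0.0851. The labels do not state whether these were paired. No 2 libraries of the same group were duplicates, over 52 pairs, and pairs across groups were not compared. The code was checked on simulated data. Alternatives were RLE scaling, no filter, a looser filter, DESeq2 1.42.0, a replicate block, each library left out, a stress-gene covariate and week 16 left out. The looser filter, the covariate and the omission of week 16 were added after seeing the data.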

Additional observations from a re-analysis of the deposited data

Results flagged for a closer look

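The effect of HFD differed between VAT and spleen, by a test of the difference itself in edgeR, for 9 members as a mean over the 4 weeks. The log2 effect in VAT minus that in spleen was -1.32 for S100a4, -1.21 for S100a6, -0.68 for S100a11, -1.03 for Lgals1 and -0.97 for Crip1. It was -1.34 for Anxa1, -0.78 for Anxa2, -0.84 for Vim and -0.95 for Ahnak. Adjusted p-values ran from 0.000193 for Crip1 to 0.0492 for S100a11, and 2.44% of 15601 genes were called. Without week 16, 0 members were called, with a smallest adjusted p of 0.133, and 68 genes in place of 380. With the stress-gene covariate 4 members were called, and 142 genes in place of 380.

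At week 16 the same difference was called for 9 members. It was -3.01 for S100a4, -2.72 for S100a6, -1.55 for S100a10, -1.83 for S100a11 and -2.48 for Lgals1. It was -2.81 for Crip1, -3.04 for Anxa1, -1.89 for Vim and -1.68 for Ahnak. Adjusted p-values ran from 8.14e-08 for Crip1 to 0.0085 for Ahnak, and 4.46% of 15601 genes were called. With the stress-gene covariate 4 members were called, and 130 genes in place of 696.

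Within VAT the effect of HFD at week 16 differed from that of the earlier weeks for 8 members. The log2 difference was -2.17 for S100a4, -1.89 for S100a6, -1.51 for S100a11 and -1.67 for Lgals1. It was -2.40 for Crip1, -3.02 for Anxa1, -1.44 for Vim and -1.20 for Ahnak. Adjusted p-values ran from 7.74e-05 for Crip1 to 0.0188 for Lgals1, and 7.12% of 14164 genes were called. With the stress-gene covariate 0 members were called, and 32 genes in place of 1009. These 3 comparisons share the VAT week 16 libraries.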

How the results depend on the processing

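The log2 fold changes of the members kept their direction and their side of the threshold in 169 of 170 values with RLE scaling, 167 of 170 with a looser filter, 162 of 170 with DESeq2 and 1947 of 2120 when a library was left out. They did so in 20 of 60 values with the stress-gene covariate and 15 of 30 without week 16.

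With DESeq2 the number of members called was 2 (in place of 1) for VAT week 8, 7 (in place of 4) for the VAT mean and 2 (in place of 1) for the spleen mean. The count came to 2 (in place of 1) for NCD week 16 against week 0 in VAT. Over all genes DESeq2 called 70 (in place of 8) for VAT week 2, 61 (in place of 3) for VAT week 4 and 423 (in place of 189) for VAT week 8. The count came to 37 (in place of 4) for spleen week 2, 307 (in place of 182) for spleen week 4 and 1 (in place of 0) for spleen week 8. Beyond these it was 21 (in place of 0) for spleen week 16, 386 (in place of 137) for the spleen mean and 631 (in place of 380) for the tissue difference as a mean. It was 342 (in place of 101) for NCD week 16 against week 0 in VAT and 270 (in place of 96) for NCD week 16 against week 0 in spleen. With the looser filter the number of members called was 0 (in place of 1) for the spleen mean.

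Without any filter edgeR's p-values could not be used. The weight given to the trend over each gene's own spread (the prior degrees of freedom) became infinite for 10 of 10 members in the fit of both tissues and 10 of 10 in culture, against 0 and 0 with the filter. For Anxa1 in both tissues a residual variance of 4.04 was then replaced by 0.462. The weight passed 100 for 1 of 10 members in VAT and 4 of 10 in spleen. The counts below are given for completeness and say nothing of stability. Unfiltered, the number of members called was 0 (in place of 1) for VAT week 8 and 1 (in place of 0) for spleen week 2. Over all genes it was 162 (in place of 8) for VAT week 2, 115 (in place of 3) for VAT week 4 and 465 (in place of 189) for VAT week 8. There were 85 (in place of 4) for spleen week 2, 305 (in place of 182) for spleen week 4 and 26 (in place of 0) for spleen week 8. The count came to 26 (in place of 0) for spleen week 16, 483 (in place of 137) for the spleen mean and 797 (in place of 380) for the tissue difference as a mean. Beyond these it was 399 (in place of 101) for NCD week 16 against week 0 in VAT and 273 (in place of 96) for NCD week 16 against week 0 in spleen.

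The replicate block, which takes same-numbered libraries as paired, is an alternative only. The labels state no pairing, and same-numbered libraries gave no general sign of it outside week 16. With the replicate block the number of members called was 0 (in place of 1) for the spleen mean and 0 (in place of 1) for NCD week 16 against week 0 in VAT. Over all genes the replicate block gave 21 (in place of 8) for VAT week 2 and 5 (in place of 3) for VAT week 4. With the block Lgals1 was called in the VAT mean (adjusted p = 0.0496) and S100a10 at VAT week 16 against earlier weeks (0.0396). The block changed no other call of a member.

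With the stress-gene covariate the number of members called was 0 (in place of 10) for VAT against spleen, 0 (in place of 9) for VAT week 16 and 1 (in place of 4) for the VAT mean. The count came to 4 (in place of 9) for the tissue difference as a mean, 4 (in place of 9) for the tissue difference at week 16 and 0 (in place of 8) for VAT week 16 against earlier weeks. Over all genes the covariate left 4 (in place of 9221) for VAT against spleen, 113 (in place of 1309) for VAT week 16 and 295 (in place of 595) for the VAT mean. The count came to 142 (in place of 380) for the tissue difference as a mean, 130 (in place of 696) for the tissue difference at week 16 and 32 (in place of 1009) for VAT week 16 against earlier weeks. Without week 16 the number of members called was 0 (in place of 4) for the VAT mean, 0 (in place of 1) for the spleen mean and 0 (in place of 9) for the tissue difference as a mean. Over all genes the omission of week 16 left 160 (in place of 595) for the VAT mean, 90 (in place of 137) for the spleen mean and 68 (in place of 380) for the tissue difference as a mean. The cause of these changes was not tested.

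With each library left out in turn, the number of members called ran from 4 to 9 for VAT week 16 against earlier weeks, 0 to 3 for the spleen mean, 3 to 7 for the VAT mean and 0 to 1 for VAT week 8. The range was 0 to 0 for NCD week 16 against week 0 in VAT. Over all genes the count ran from 239 to 504 for the tissue difference as a mean, 426 to 762 for the tissue difference at week 16, 431 to 1102 for VAT week 16 against earlier weeks and 16 to 295 for the spleen mean. The range was 0 to 1 for spleen week 16, 0 to 2 for spleen week 2, 0 to 287 for spleen week 4 and 0 to 7 for spleen week 8. The range was 386 to 654 for the VAT mean, 666 to 1262 for VAT week 16, 2 to 54 for VAT week 2 and 0 to 6 for VAT week 4. The range was 37 to 248 for VAT week 8, 7 to 120 for NCD week 16 against week 0 in spleen and 1 to 42 for NCD week 16 against week 0 in VAT. Where a left-out library left a single one in VAT NCD week 16, spleen NCD week 4, VAT HFD week 4 or IFNα, its spread was taken to be that of the other groups.

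The sign of a member's log2 fold change differed from the reported one in 42 values, of which 0 were called in either fit, with a smallest adjusted p of 0.648. Of these, S100a6 had 0.042 for VAT week 4 with the replicate block, S100a11 had 0.075 for the VAT mean with week 16 left out and Crip1 had 0.00311 for spleen week 4 with the replicate block. The other changes of sign came with a library left out, where the value ranged around 0. For spleen week 16 it ran from -0.15 to 0.33 for Ahnak and -0.57 to 0.26 for Anxa1. For spleen week 4 it ran from -0.065 to 0.71 for Ahnak, -0.031 to 0.62 for Anxa2, -0.26 to 0.25 for Crip1, -0.066 to 0.37 for Lgals1 and -0.21 to 0.31 for Vim. For spleen week 8 it ran from -0.22 to 0.083 for Crip1, -0.25 to 0.084 for Lgals1, -0.13 to 0.19 for S100a10 and -0.054 to 0.049 for S100a11. For VAT week 2 it ran from -0.12 to 0.18 for Ahnak. For VAT week 4 it ran from -0.28 to 0.020 for Ahnak, -0.011 to 0.078 for S100a11, -0.13 to 0.044 for S100a6 and -0.11 to 0.24 for Vim. For VAT week 8 it ran from -0.32 to 0.075 for Anxa2 and -0.68 to 0.00518 for S100a11. For NCD week 16 against week 0 in spleen it ran from -0.26 to 0.11 for Anxa2, -0.17 to 0.53 for S100a4, -0.15 to 0.42 for S100a6 and -0.16 to 0.18 for Vim.

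With 2 or 3 libraries in a group, log2 fold changes of up to 1.28 in spleen at week 2 (S100a6) did not pass the threshold, which does not show that they were absent.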
